A study of Mus musculus with 24 samples.

Results

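The S100 genes code for small proteins with paired EF-hand loops that bind calcium. The files gave values for 18 of them among 26636 genes, and the 8 described here are S100a1, S100a4, S100a6, S100a10, S100a11, S100a13, S100a16 and S100b. They were taken by symbol, and they were chosen with their values across the 8 groups of libraries known. Comparisons between the enantiomers of JQ1, between doses and between times use the same values, so all are given for them as a description. Calls of the members and their p-values are given only to stand beside the share of all genes, and nothing rests on them. The study concerned the effect of BET bromodomain inhibition on the fates of neural progenitor cells. The cells came from the cortices of C57BL/6 mouse embryos at embryonic day 12, were expanded with basic fibroblast growth factor, and were used at passage 3. All 24 libraries were from cells in differentiation medium, which contained either (+)-JQ1, an inhibitor that blocks the bromodomains of BET proteins from binding acetylated histones, or its inactive enantiomer (−)-JQ1.

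Doses of 0.2 and 0.5 µM and treatments of 12 and 24 h were used for both enantiomers, which made 8 groups of 3 libraries, and no library came from cells without a JQ1 enantiomer. Per the labels, the 3 libraries of a group came from independent preparations of cells; whether libraries with the same number in different groups shared a preparation was not stated. The cultures were not sorted and carried no transgene, so a change in a gene here may be a change in the number of cells that express it or in the RNA per cell. These cannot be told apart in bulk RNA. Values are FPKM, which are read counts scaled by gene length and by the total of each library. Differences are given as differences of mean log2(FPKM + 1) with their standard error (SE), a scale that understates changes of genes with low FPKM.

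S100 proteins mostly work as dimers. Calcium opens a hydrophobic surface on them, through which they bind and regulate other proteins such as annexins, cytoskeletal proteins and kinases, and some members are secreted and bind the receptor RAGE. In the brain S100b is best known from astrocytes, and it is also made by cells of the oligodendrocyte lineage. S100a1, S100a6, S100a13 and S100a16 have also been described in astrocytes, S100a4 in astrocytes of white matter, and S100a10 is the partner of annexin A2.

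The genes lie in 3 places of the mouse genome. In the order of protein-coding genes of the RefSeq annotation of GRCm38.p6, 12 S100 genes follow each other on chromosome 3 from S100a1 to S100a9, with no other gene between them. S100a1, S100a13, S100a16, S100a4 and S100a6 belong to this run. S100a11 and S100a10 are next to each other on the same chromosome, 56 protein-coding genes further on, and S100b is on chromosome 10. The promoters of genes from the 3 places are shown because the genes differed in how their RNA differed between the enantiomers. They are the 250 bases before a start on the RefSeq annotation of GRCm38.p6, on the strand of the gene, for S100b (chr10:76253586-76253835, plus strand), for both annotated starts of S100a16 (chr3:90537004-90537253 and chr3:90540896-90541145, plus strand) and for S100a11 (chr3:93520246-93520495, plus strand). The 104 bases between the starts of S100a1 and S100a13, which point away from each other, are also shown (chr3:90514331-90514434, plus strand). The capitals mark matches, on either strand, to TGANTCA, which is the AP-1 motif, to GGGCGG, which is the core of the GC box, and to ACAATG, which is a SOX motif.

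S100b: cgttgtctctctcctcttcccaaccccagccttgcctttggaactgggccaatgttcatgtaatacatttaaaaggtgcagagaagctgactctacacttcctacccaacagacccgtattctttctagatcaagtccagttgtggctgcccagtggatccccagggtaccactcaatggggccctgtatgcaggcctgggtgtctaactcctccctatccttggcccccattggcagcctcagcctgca

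S100a16 at its first start: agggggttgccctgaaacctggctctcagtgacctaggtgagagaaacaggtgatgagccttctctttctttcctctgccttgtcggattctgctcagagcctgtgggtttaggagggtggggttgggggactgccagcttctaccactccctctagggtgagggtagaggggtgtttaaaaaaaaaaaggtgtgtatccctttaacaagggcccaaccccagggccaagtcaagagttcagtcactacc

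S100a16 at its second start: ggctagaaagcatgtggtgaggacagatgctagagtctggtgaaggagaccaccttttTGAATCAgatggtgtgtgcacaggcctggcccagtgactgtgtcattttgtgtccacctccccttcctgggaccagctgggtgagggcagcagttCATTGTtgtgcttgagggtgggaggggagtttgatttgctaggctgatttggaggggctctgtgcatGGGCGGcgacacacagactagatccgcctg

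S100a11: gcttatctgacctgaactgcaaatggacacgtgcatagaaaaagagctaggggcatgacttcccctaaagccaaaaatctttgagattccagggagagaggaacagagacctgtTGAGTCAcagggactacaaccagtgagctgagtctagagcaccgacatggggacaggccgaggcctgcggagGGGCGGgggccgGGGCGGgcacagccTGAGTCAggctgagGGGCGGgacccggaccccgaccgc

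Between S100a1 and S100a13: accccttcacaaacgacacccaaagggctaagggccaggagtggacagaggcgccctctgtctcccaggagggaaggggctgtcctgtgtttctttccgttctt

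The promoter table held 250-base windows for 7 of the 8 genes, 8 windows in all, among 32851 windows of all genes. The motifs searched on both strands were TATAAA, the TATA box, found in 12.4% of all windows, TGANTCA, in 6.75%, CANNTG, the E-box, in 66.2%, ACAAAG, a further SOX motif, in 16.5%, ACAATG, in 10.7%, and GGGCGG, in 32.7%. Matches of CANNTG are not in capitals, since most windows hold it. The window of S100a11 held 2 matches of TGANTCA, 3 of GGGCGG and 11 CpG dinucleotides, against a median of 6 CpG over all windows. The window of S100b held 2 CpG and no match other than 1 of CANNTG. At its first start S100a16 had 1 CpG and likewise only 1 match of CANNTG, whereas the window of its second start held 1 match of TGANTCA, as well as 1 of ACAATG and 1 of GGGCGG. Of the members, S100a4 alone had a match of TATAAA. The windows of S100a13, with 13 CpG, and of S100a1, with 8 CpG, share the 104 bases shown, and that of S100a6 had 3 CpG. A match is a run of letters and not a measured binding site.

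S100a11 had the highest median level of the 8 genes under both enantiomers. Over the 12 (−)-JQ1 libraries, S100a11 was highest with a median of 49.8 FPKM, followed by S100a16 (37.5 FPKM), S100b (31.7 FPKM), S100a1 (28.4 FPKM) and S100a10 (18.5 FPKM). S100a4 (5.92 FPKM), S100a13 (5.38 FPKM) and S100a6 (3.57 FPKM) were low. The ranges of neighbours in this order overlapped, and at 0.2 µM and 24 h the mean of S100a16 was above that of S100a11, with 78.7 ± 43.5 against 54.8 ± 5.01 FPKM (SD, n = 3). Over the 12 (+)-JQ1 libraries, S100a11 was again highest with a median of 61.6 FPKM, S100a10 had 13.5 FPKM and S100a1 7.76 FPKM, and the other 5 genes had medians of at most 2.55 FPKM. The ranges of S100a11 and S100a10 did not overlap there. Summed over the 8 genes, the level was 136.9 to 346 FPKM in the (−)-JQ1 libraries and 65.3 to 99.3 FPKM in the (+)-JQ1 libraries.

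**Figure D1:**
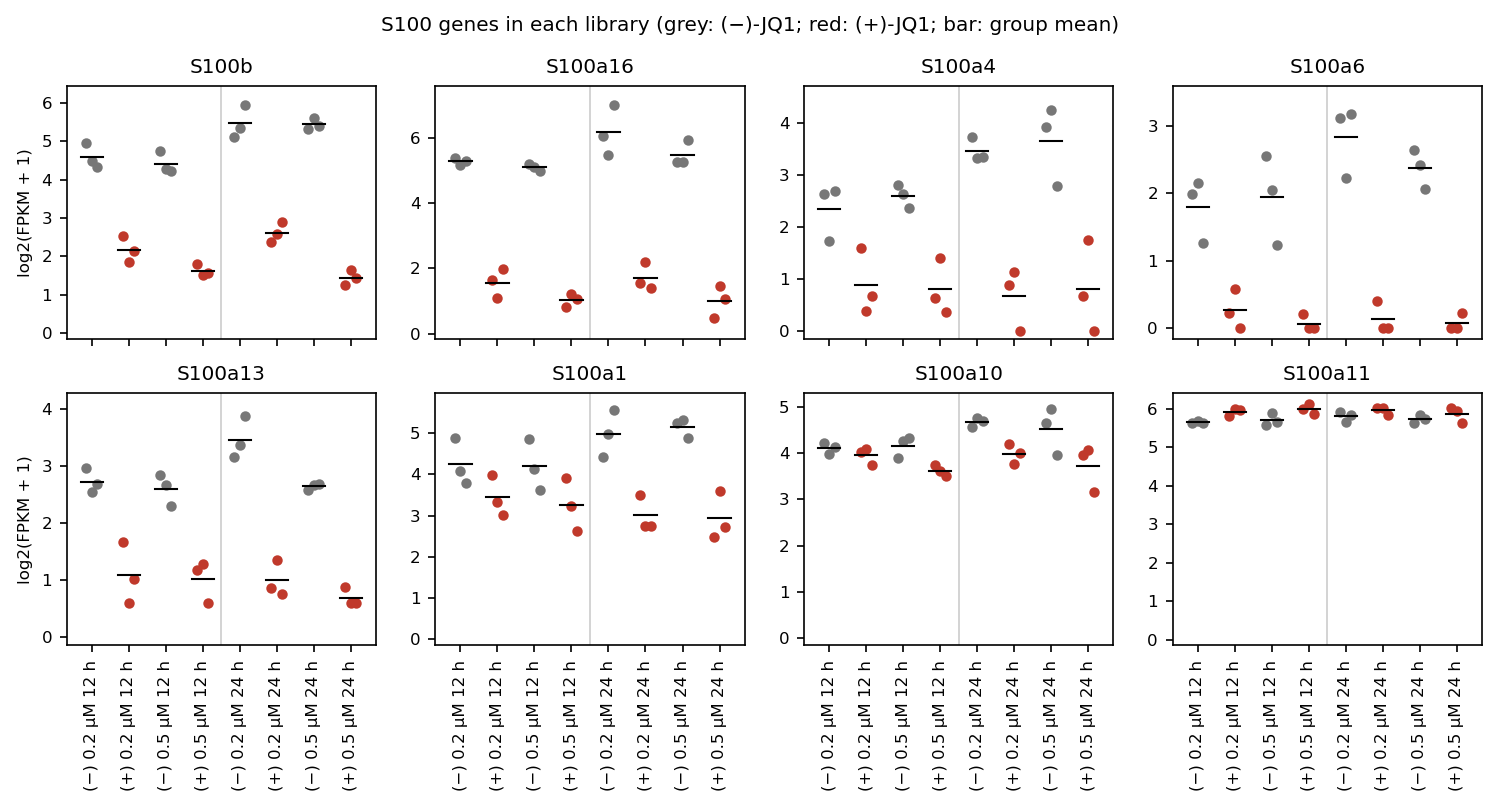
Level of the 8 S100 genes in each of the 24 libraries as log2(FPKM + 1), with 1 point per library, grey for (−)-JQ1 and red for (+)-JQ1, and a bar at the mean of each group of 3. The red points of S100b, S100a16, S100a6 and S100a13 lie below all grey points, and those of S100a11 lie among or just above them.

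S100b, the glial calcium sensor that is also secreted, was lower in every (+)-JQ1 library than in any (−)-JQ1 library. In (−)-JQ1 at 12 h it was 29.9, 21.5 and 19.1 FPKM at 0.2 µM and 25.7, 18.4 and 17.7 FPKM at 0.5 µM. In (−)-JQ1 at 24 h it was 33.6, 39.5 and 61.3 FPKM at 0.2 µM and 38.7, 48.1 and 41.1 FPKM at 0.5 µM. All 6 libraries at 24 h were thus above all 6 at 12 h. In (+)-JQ1 at 12 h it was 4.81, 2.62 and 3.37 FPKM at 0.2 µM and 2.48, 1.87 and 1.94 FPKM at 0.5 µM. At 24 h it was 4.19, 5.001 and 6.41 FPKM at 0.2 µM and 1.36, 2.09 and 1.71 FPKM at 0.5 µM, so the doses of (+)-JQ1 did not overlap at either time. The mean in (−)-JQ1 was 6.52 times that in (+)-JQ1 at 0.2 µM and 9.82 times at 0.5 µM after 12 h, and 8.62 and 24.8 times after 24 h. On the log2 scale the difference was -2.42, -2.79, -2.85 and -4.01 (SE 0.21), in the order 0.2 µM at 12 h, 0.5 µM at 12 h, 0.2 µM at 24 h and 0.5 µM at 24 h, which is used for all genes below.

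S100a16, a broadly expressed member of the family, had the largest difference of the 8 genes at each dose and time. In (−)-JQ1 at 12 h it was 40.6, 35.0 and 37.8 FPKM at 0.2 µM and 35.5, 33.3 and 30.5 FPKM at 0.5 µM. At 24 h it was 65.8, 43.1 and 127 FPKM at 0.2 µM and 37.1, 37.1 and 60.3 FPKM at 0.5 µM, with the third library of 0.2 µM well above the rest. In (+)-JQ1 it was 2.09, 1.11 and 2.91 FPKM at 0.2 µM and 0.750, 1.31 and 1.10 FPKM at 0.5 µM after 12 h. After 24 h it was 1.95, 3.59 and 1.63 FPKM at 0.2 µM and 0.401, 1.73 and 1.10 FPKM at 0.5 µM. No (+)-JQ1 library reached a level near that of any (−)-JQ1 library. The differences were -3.72, -4.06, -4.46 and -4.48 (SE 0.32), and the (−)-JQ1 means were 18.5, 31.5, 32.9 and 41.6 times the (+)-JQ1 means. The FPKM of this gene moved in steps of 0.0986 FPKM, the worth of 1 read, so the (+)-JQ1 values stood on 4 to 35 reads and the (−)-JQ1 values on 301 to 1340.

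S100a13, which takes part in the release of FGF1 from cells, also had no overlap between the enantiomers. In (−)-JQ1 it was 6.76, 4.81 and 5.37 FPKM at 0.2 µM and 6.15, 5.32 and 3.91 FPKM at 0.5 µM after 12 h. After 24 h it was 7.85, 9.21 and 13.5 FPKM at 0.2 µM and 4.93, 5.34 and 5.39 FPKM at 0.5 µM. In the 12 (+)-JQ1 libraries it ran from 0.502 to 2.17 FPKM with a median of 0.830, which is 3 to 13 reads against 23 to 85 in (−)-JQ1. The differences were -1.63, -1.59, -2.47 and -1.95 (SE 0.24).

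S100a6, also known as calcyclin, was close to the limit of detection in (+)-JQ1. In (−)-JQ1 it was 2.96, 3.45 and 1.41 FPKM at 0.2 µM and 4.85, 3.14 and 1.35 FPKM at 0.5 µM after 12 h. After 24 h it was 7.63, 3.69 and 8.05 FPKM at 0.2 µM and 5.24, 4.33 and 3.18 FPKM at 0.5 µM. It was listed at 0 in 7 of the 12 (+)-JQ1 libraries, and the highest value there was 0.505 FPKM, or 3 reads, while the (−)-JQ1 values stood on 8 to 51 reads. The differences were -1.53, -1.87, -2.70 and -2.30 (SE 0.29). No ratio is given for groups with a library listed at 0, since 139 genes with a mean of at least 10 FPKM were also listed at 0 in a library.

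S100a4, a regulator of non-muscle myosin and cell motility, was low and more variable. In (−)-JQ1 it was 5.17, 2.30 and 5.47 FPKM at 0.2 µM and 6.00, 5.19 and 4.13 FPKM at 0.5 µM after 12 h. After 24 h it was 12.2, 8.96 and 9.09 FPKM at 0.2 µM and 14.02, 17.9 and 5.84 FPKM at 0.5 µM. In (+)-JQ1 it ran from 0.290 to 2.03 FPKM at 12 h and from 0 to 2.36 FPKM at 24 h, where it was listed at 0 in the third library of each dose. The highest (+)-JQ1 value, from 0.5 µM at 24 h, was just above the lowest (−)-JQ1 value, from 0.2 µM at 12 h, so the enantiomers overlapped over all libraries but not within a dose and time. The differences were -1.47, -1.80, -2.78 and -2.84 (SE 0.46), and they rested on 0 to 8 reads in (+)-JQ1 and 8 to 64 in (−)-JQ1.

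S100a1, a partner of calcium pumps and channels, had smaller differences at 12 h than at 24 h. At 12 h it was 28.5, 16.1 and 12.9 FPKM in (−)-JQ1 and 14.7, 9.07 and 7.12 FPKM in (+)-JQ1 at 0.2 µM. At 0.5 µM it was 28.2, 16.5 and 11.2 FPKM in (−)-JQ1 and 14.1, 8.40 and 5.20 FPKM in (+)-JQ1. The groups overlapped at both doses at this time. At 24 h it was 20.4, 30.3 and 46.7 FPKM in (−)-JQ1 and 10.4, 5.77 and 5.73 FPKM in (+)-JQ1 at 0.2 µM. At 0.5 µM it was 37.0, 39.2 and 28.7 FPKM in (−)-JQ1 and 4.60, 11.01 and 5.65 FPKM in (+)-JQ1, with no overlap at either dose. The differences were -0.82, -0.94, -1.98 and -2.22 (SE 0.41). This SE takes no account of the library numbers. At 12 h the library numbered 1 was highest and that numbered 3 lowest in all 4 groups. Within a number at that time, (+)-JQ1 minus (−)-JQ1 ran from -0.98 to -0.76 on the log2 scale. Whether a number marks a shared preparation is not stated in the labels.

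S100a10, the annexin A2 partner that has lost calcium binding, had smaller differences than the other 6 genes that were lower in (+)-JQ1. In (−)-JQ1 it was 17.5, 14.8 and 16.5 FPKM at 0.2 µM and 13.7, 18.1 and 18.9 FPKM at 0.5 µM after 12 h, and in (+)-JQ1 15.1, 15.9 and 12.4 and 12.4, 11.2 and 10.4 FPKM. After 24 h it was 22.6, 25.9 and 24.6 FPKM at 0.2 µM and 24.2, 30.01 and 14.5 FPKM at 0.5 µM in (−)-JQ1, and 17.3, 12.6 and 15.1 and 14.4, 15.6 and 7.90 FPKM in (+)-JQ1. The groups did not overlap at 0.5 µM and 12 h or at 0.2 µM and 24 h, and they did in the other 2 comparisons. The differences were -0.16, -0.53, -0.68 and -0.80 (SE 0.22).

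S100a11, which binds annexin A1, was the only one of the 8 genes with values that leaned to the other side. In (−)-JQ1 it ran from 46.7 to 58.1 FPKM at 12 h and from 48.7 to 59.3 FPKM at 24 h. In (+)-JQ1 it ran from 54.6 to 69.0 FPKM at 12 h and from 48.3 to 64.1 FPKM at 24 h. The groups overlapped at every dose and time other than 0.2 µM at 12 h. The differences were 0.27, 0.29, 0.16 and 0.11 (SE 0.11), and they were still above 0 when libraries were rescaled by the median of ratios. The annotation holds a pseudogene of S100a11, so reads of the 2 copies may have been shared between them.

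**Figure D2:**
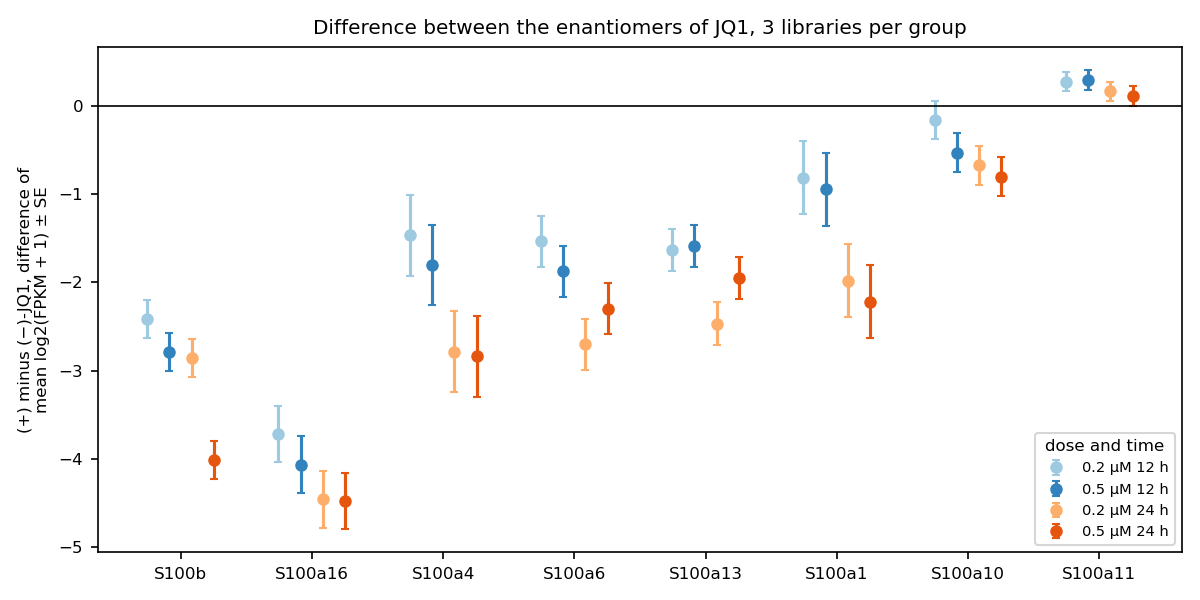
Difference between (+)-JQ1 and (−)-JQ1 for each S100 gene as the difference of mean log2(FPKM + 1), with SE bars and 1 point for each dose and time (blue for 12 h, orange for 24 h, darker for 0.5 µM). Points run from -4.48 for S100a16 to 0.29 for S100a11, and S100b stands apart at 0.5 µM and 24 h with -4.01.

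A gene was called at an adjusted p under 0.05 in limma over the 13801 genes that reached 1 FPKM in 3 or more libraries. All 8 members passed this filter, but S100a6 did so only through the (−)-JQ1 libraries, where 12 of 12 had at least 1 FPKM against 0 of 12 in (+)-JQ1. S100a4 and S100a13 had 12 of 12 in (−)-JQ1 and 4 and 5 of 12 in (+)-JQ1, enough to pass there as well. Called lower in (+)-JQ1 were 5, 5, 7 and 7 of the 8 members in the order given above, where 19.6%, 26.1%, 21.8% and 24.5% of all genes tested were called lower. Called higher were 0, 1, 0 and 0 members, the 1 being S100a11 at 0.5 µM and 12 h, where 8.23%, 12.2%, 11.0% and 13.7% of all genes were called higher. Under the median-of-ratios scaling, the shares of all genes called were 16.5%, 21.9%, 17.8% and 21.4% lower and 12.999%, 19.01%, 18.1% and 19.7% higher, and the median difference of all genes moved up by 0.0766 to 0.101 (log2). The median difference of the members was -1.50, -1.69, -2.58 and -2.26, beside -0.07, -0.10, -0.07 and -0.05 over all genes. Since the members were chosen on these contrasts, nothing is read from these counts. All 12 (+)-JQ1 libraries lay below all 12 (−)-JQ1 libraries for S100b, S100a16, S100a13 and S100a6, as they did for 10.4% of all genes tested.

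Some of these calls depended on the processing or on 1 library, which is a limit of the counts. The call of S100a4 at 0.2 µM and 12 h was lost with a pseudocount of 0.1 and without any 1 of 4 libraries, namely the first or the third of (−)-JQ1 or the second or the third of (+)-JQ1. At 0.2 µM and 24 h, the call of S100a10 was lost with library weights and without the second or the third (−)-JQ1 library or the second (+)-JQ1 library. At 0.5 µM and 24 h it was lost in a fit to the 6 libraries of the comparison alone and without the second (−)-JQ1 or the third (+)-JQ1 library. The call of S100a11 at 0.5 µM and 12 h was lost without the filter on low values and without the first or the third (−)-JQ1 or the first or the second (+)-JQ1 library.

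Other settings added calls. At 0.5 µM and 12 h, S100a1 was called lower with library weights and without the third (−)-JQ1 or the first (+)-JQ1 library. S100a10 was called lower there with library weights, in a fit to the libraries of the comparison alone and without the first (−)-JQ1 library. S100a11 was called higher at 0.2 µM and 12 h with library weights, under the median-of-ratios scaling and in a fit to the libraries of the comparison alone, and at 0.2 µM and 24 h under that scaling.

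Of the 10 other S100 genes in the files, only S100a3 passed the filter. It was listed at 0 in all 12 (+)-JQ1 libraries and ran from 0.325 to 1.85 FPKM in (−)-JQ1, on 2 to 11 reads. S100a14, which lies between S100a13 and S100a16, was likewise listed at 0 in all (+)-JQ1 libraries and reached 0.928 FPKM in (−)-JQ1, with 1 of 12 libraries at 0. S100a2 was above 0 in 1 (−)-JQ1 library alone, at 1.496 FPKM. S100a5, S100a7a, S100a8, S100a9, S100g, S100z and S100a7l2, which the files name 9130204L05Rik, were at 0 in all 24 libraries.

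The genes next to the chromosome 3 run had smaller differences or were not tested. Chtop, which codes for a chromatin target of protein arginine methylation and borders S100a1, had differences of -0.41, -0.46, -0.30 and -0.36 (SE 0.12), and limma called it in all comparisons but 0.2 µM at 24 h. Snapin, a gene of vesicle transport on the far side of Chtop, had differences of 0.24, 0.22, 0.42 and 0.26 (SE 0.09) and was called higher at 24 h at both doses. Ilf2 was called in none of the 4 comparisons. On the other side Pglyrp4 reached only 0.0419 FPKM in any library. Of the 56 protein-coding genes between S100a9 and S100a11, 53 were in the files and none passed the filter, with 1.24 FPKM as the highest value in any library. Prmt2 and Dip2a, which border S100b, were called in none of the 4 comparisons. Among the next genes beyond Dip2a, Mcm3ap, which codes for a protein of mRNA export, was called lower in all 4, with differences of -0.76, -0.97, -0.70 and -0.99 (SE 0.14). Pcnt, which codes for the centrosome protein pericentrin, was called higher at 0.2 µM and 24 h alone, with 0.45 (SE 0.12). The annotated span of S100a13, which includes a start other than the one shown above, begins inside that of S100a1 on the opposite strand, so reads there cannot be told apart without strand.

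**Figure D3:**
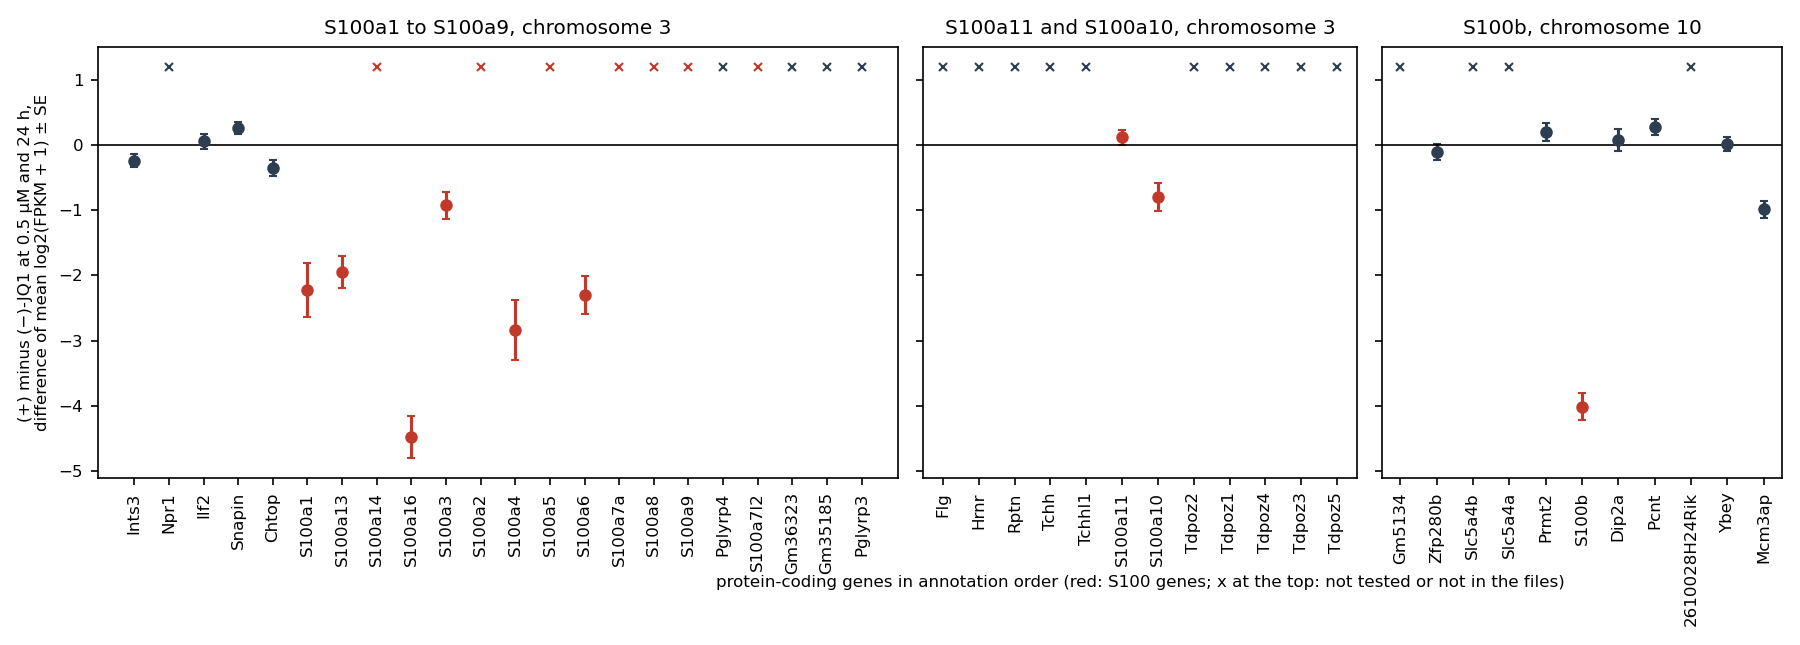
Difference between (+)-JQ1 and (−)-JQ1 at 0.5 µM and 24 h, as the difference of mean log2(FPKM + 1) with SE bars, for protein-coding genes in annotation order around the 3 places that hold the S100 genes. Red points are S100 genes, dark points are neighbours and crosses at the top are genes not tested or not in the files; the tested S100 genes of the first run lie between -0.93 and -4.48, whereas Chtop next to S100a1 is at -0.36.

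S100b was lower at the higher dose of (+)-JQ1 at 24 h, which is a description, since the genes were chosen with these values known. It fell by 1.18 ± 0.21 (SE) on the log2 scale from 0.2 to 0.5 µM, with an adjusted p of 0.00295 in limma, and all 3 libraries at 0.5 µM (1.36 to 2.09 FPKM) were below all 3 at 0.2 µM (4.19 to 6.41 FPKM). This was the only member called lower, 1 of 8, where 2.05% of all genes tested were called lower. The call held in all 14 alternative analyses, with adjusted p from 0.000568 to 0.0415 in limma, but these reuse the same values. S100a16 had a difference of -0.72 ± 0.32 (adjusted p 0.272), and those of the other 6 genes lay between -0.30 and 0.13. At 12 h none of the 8 members was called, where 0.645% of all genes were, and 1 member, S100b, had an unadjusted p under 0.05. Its difference was -0.55 ± 0.21 (adjusted p 0.472).

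No member was called between the doses of (−)-JQ1. The difference of S100b was -0.17 ± 0.21 at 12 h and -0.03 ± 0.21 at 24 h, with a 95% interval from -0.47 to 0.41 at 24 h. None of the 8 members was called at 12 h, where 0.0% of all genes were called and no member had an unadjusted p under 0.05. None was called at 24 h, where 0.00725% of all genes were called, and 2 members had an unadjusted p under 0.05. These were S100a13 with -0.82 ± 0.24 (adjusted p 0.29) and S100a16 with -0.69 ± 0.32 (adjusted p 0.396). Both were highest in the third library of 0.2 µM, and 2 members were called without the second library of 0.2 µM. The share of all genes called without that library was not taken.

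The difference between the enantiomers was then compared between doses. No member was called at 12 h, where 0.0435% of all genes were and no member had an unadjusted p under 0.05, or at 24 h, where 0.29% were and 1 had such a p. That was S100b at 24 h, with a further difference of -1.15 ± 0.30 at the higher dose (adjusted p 0.169). Without the third library of (−)-JQ1 at 0.2 µM and 24 h it was called, with -1.40 and an adjusted p of 0.0417. The dose step of S100b at 24 h was thus called within (+)-JQ1, and its difference from the step within (−)-JQ1 was not.

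Between 12 and 24 h in differentiation medium with (−)-JQ1, over both doses, 4 of the 8 members were called higher, beside 11.0% of all genes tested. The members were chosen with these values known, so this count is a description. S100b rose by 0.96 ± 0.15 on the log2 scale (adjusted p 0.000154). S100a4 rose by 1.08 ± 0.32 (adjusted p 0.0295), S100a6 by 0.73 ± 0.20 (adjusted p 0.0180) and S100a10 by 0.46 ± 0.15 (adjusted p 0.0448). S100a1 with 0.84 ± 0.29 (adjusted p 0.0601) and S100a16 with 0.64 ± 0.23 (adjusted p 0.0592) missed the threshold. S100a13 had 0.38 ± 0.17 (adjusted p 0.132) and S100a11 0.10 ± 0.08 (adjusted p 0.443). All 8 values were above 0, with a median of 0.69 beside 0.03 over all genes.

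Only the rise of S100b was called in all 20 alternative analyses of this comparison, with adjusted p from 8.5e-05 to 0.00198 in limma. These analyses reuse the same values, known when the genes were chosen, so they show dependence on the processing alone. The call of S100a10 was lost without any 1 of 10 of the 12 libraries, the exceptions being the first of 0.2 µM and the third of 0.5 µM at 24 h. S100a6 lost its call without the third library of either dose at 12 h or the first of 0.5 µM at 24 h, with adjusted p up to 0.0573. S100a4 lost its call without the second library of 0.2 µM or the second or the third of 0.5 µM at 12 h, or the first of 0.2 µM or the first or the second of 0.5 µM at 24 h, with adjusted p up to 0.0855. With a pseudocount of 0.1 in place of 1, S100a4 had an adjusted p of 0.286 and S100a6 of 0.187.

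**Figure D4:**
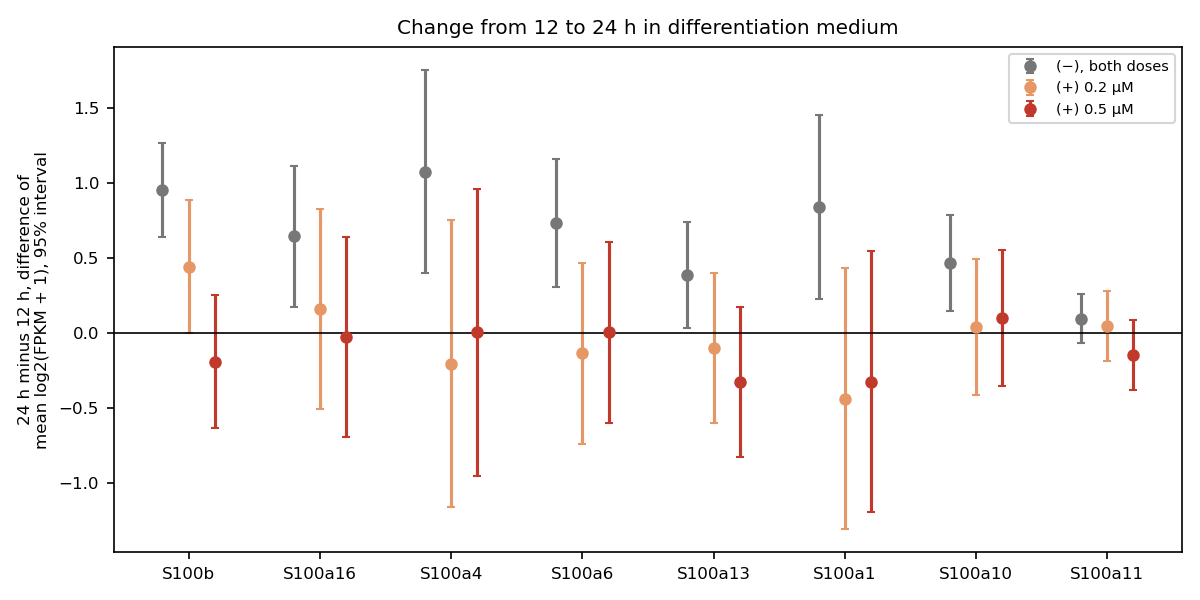
Change of each S100 gene from 12 to 24 h as the difference of mean log2(FPKM + 1), with 95% intervals, for (−)-JQ1 over both doses (grey) and for (+)-JQ1 at 0.2 µM (orange) and 0.5 µM (red). The grey points run from 0.10 to 1.08, and every interval of the (+)-JQ1 points includes 0.

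In (+)-JQ1, no member was called between 12 and 24 h, at 0.2 µM, where 3.3% of all genes were called, or at 0.5 µM, where 4.21% were. No member had an unadjusted p under 0.05 at either dose. S100b had a difference of 0.44 ± 0.21 at 0.2 µM (adjusted p 0.322) and -0.19 ± 0.21 at 0.5 µM (adjusted p 0.664). The 95% intervals ran from -0.000434 to 0.886 at 0.2 µM and from -0.63 to 0.25 at 0.5 µM. They cannot be set against the bare value of 0.96 in (−)-JQ1, which has an error of its own. A direct comparison of the courses is given below. The differences of S100a4 were -0.20 and 0.01 and those of S100a6 were -0.14 and 0.00, on the few reads given above.

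The difference between the enantiomers was also compared between times. The value at 24 h minus that at 12 h was below 0 for all 8 members at both doses, with medians of -0.79 at 0.2 µM and -0.42 at 0.5 µM beside 0.01 and 0.03 over all genes. For S100a11 this was a smaller difference above 0 at 24 h, and for the other 7 a difference further below 0. No member was called, where 0.0217% of all genes were called at 0.2 µM and 0.326% at 0.5 µM, and 2 members at each dose had an unadjusted p under 0.05. These were S100a6 and S100a13 at 0.2 µM and S100b and S100a1 at 0.5 µM. S100b had -1.22 ± 0.30 at 0.5 µM (adjusted p 0.108), and in a fit to the 12 libraries of 0.5 µM alone its adjusted p was 0.0365. The rise of S100b in (−)-JQ1 was therefore called, and its difference from the course in (+)-JQ1 was not in limma over all libraries.

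Across the 24 libraries, S100b and S100a16 varied together most closely, with a Pearson r of 0.97 on log2(FPKM + 1), and S100a16 and S100a13 had r = 0.96. S100a1 had r = 0.86 with S100a13, r = 0.88 with S100a4 and r = 0.88 with S100b. S100a11 had values of r from -0.60 to -0.19 with the other 7 genes. These describe libraries that fall into 2 enantiomers and share their scaling, and no test was made. Among 9295 other genes with a mean of at least 5 FPKM, those most like S100b were Tmem88b (r = 0.992), Chn2 (r = 0.989) and Enpp6 (r = 0.988), of which Enpp6 marks newly formed oligodendrocytes. Those most like S100a16 were Urm1 (r = 0.988), Matn4 and Tsc22d4 (each r = 0.987). Slc15a2, a peptide transporter, was the most like both S100a6 (r = 0.953) and S100a13 (r = 0.952). S100a1 was most like Emp2 (r = 0.914), S100a4 most like Zbtb8os (r = 0.926), S100a10 most like D6Wsu163e (r = 0.877) and S100a11 most like D16H22S680E (r = 0.864).

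Most tested markers of glia were called lower in (+)-JQ1, where 7 of the 8 members were lower and S100a11 leaned the other way. Lower calls were not confined to glia, as the other lists show. The summed level of 6 astrocyte markers was 370.4 to 876 FPKM in (+)-JQ1 and 765 to 1395 FPKM in (−)-JQ1, and limma called 3, 5, 3 and 4 of the 5 tested lower, where 19.6%, 26.1%, 21.8% and 24.5% of all genes tested were called lower and 8.23%, 12.2%, 11.0% and 13.7% higher. These shares also stand behind the counts of the lists that follow. The summed level of 12 markers of the oligodendrocyte lineage was 470.1 to 1314 FPKM in (+)-JQ1 and 1762 to 2657 FPKM in (−)-JQ1, and 9, 10, 8 and 10 of the 11 tested were called lower. Markers of neural progenitors, 5 in all, summed to 2391 to 5473 FPKM in (+)-JQ1 and 1694 to 3647 FPKM in (−)-JQ1, with 2, 3, 1 and 4 called higher. The part of these lists in the levels of the S100 genes was not tested. The 5 neuron markers summed to 382.1 to 548 FPKM in (+)-JQ1 and 351.4 to 473 FPKM in (−)-JQ1, with 2, 3, 1 and 2 called lower and 1 called higher in each comparison.

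Markers of further cell types that can express S100 genes were set beside S100a4 and S100a6, which ran from 2.30 to 17.9 FPKM and from 1.35 to 8.05 FPKM in (−)-JQ1. Microglia and myeloid markers summed to at most 0.583 FPKM in (+)-JQ1 and 0.758 FPKM in (−)-JQ1 over 7 genes, with Aif1, S100a8 and S100a9 at 0 in all libraries. Markers of fibroblasts and pericytes, in which S100a4 and S100a6 are also made, summed to 2.74 to 5.34 FPKM in (+)-JQ1 and 5.83 to 13.6 FPKM in (−)-JQ1, and 2, 3, 3 and 3 of the 4 tested were called lower. Those of endothelium summed to 0.530 to 2.61 FPKM and 0.715 to 6.63 FPKM, with Cdh5 and Cldn5 at 0 in all libraries. Those of ependyma and choroid plexus summed to 2.59 to 7.75 FPKM in (+)-JQ1 and 9.003 to 30.3 FPKM in (−)-JQ1, of which Foxj1 was tested and called lower at each dose and time, and Tmem212 was at 0 in all libraries. The sums of ependyma and choroid plexus markers in (−)-JQ1 reached above the levels of both S100 genes, but they were nearly all Foxj1. Its means in (−)-JQ1 were 11.6 to 23.2 FPKM, against at most 0.275 FPKM for Ttr and 0.114 FPKM for Ccdc153. Likewise the endothelium sums in (−)-JQ1 were mostly Kdr, with means of 1.36 to 4.92 FPKM against at most 0.083 FPKM for Pecam1. A sum carried by 1 gene is a weak measure of a cell type. The part of these cells in the values of S100a4 and S100a6 was not tested.

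Genes of proteins that S100 proteins bind or regulate went both ways. Of 34 such genes, written from general knowledge, 29 were tested; 9, 11, 12 and 11 were lower and 5 in each comparison higher in (+)-JQ1 by limma. Of all genes tested, 19.6%, 26.1%, 21.8% and 24.5% were called lower and 8.23%, 12.2%, 11.0% and 13.7% higher. The median difference of the list was -0.13, -0.15, -0.08 and -0.11, beside -0.07, -0.10, -0.07 and -0.05 over all genes, and this median covers members that went in both directions. Fgf1, the growth factor whose release involves S100a13, had differences of -1.61, -1.56, -2.08 and -2.44 (SE 0.26), with means of 5.22 FPKM in (−)-JQ1 and 0.148 FPKM in (+)-JQ1 at 0.5 µM and 24 h. Ppfibp1, a liprin that binds S100a4, had differences of -1.27, -2.02, -1.24 and -2.12 (SE 0.11). Anxa7, an annexin, had -0.76, -1.02, -0.93 and -1.15 (SE 0.13), and these 3 genes were called in all 4 comparisons. Ahnak, the scaffold bound by S100a10 and annexin A2, had -0.40 at 0.2 µM and 12 h (adjusted p 0.0859) and was called in the other 3 comparisons with -0.51, -0.47 and -1.05 (SE 0.17).

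The most abundant genes of this list moved both ways. Vim, the intermediate filament protein vimentin, had a mean of 1409 ± 64.6 FPKM (SD, n = 3) in (+)-JQ1 and 992 ± 94.3 FPKM in (−)-JQ1 at 0.5 µM and 24 h, and limma called it higher in all comparisons other than 0.2 µM at 24 h. Gfap, the intermediate filament protein of astrocytes and a partner of S100b, fell from 440.4 ± 48.8 to 220.3 ± 20.3 FPKM at that dose and time and was called lower in all 4 comparisons. Plat, tissue plasminogen activator, whose product binds S100a10, was called higher in all 4, with 183 ± 30.1 against 133 ± 23.8 FPKM at 0.5 µM and 24 h. Capzb, a capping protein of actin filaments, was called lower at 0.2 µM and 24 h alone, with a difference of -0.29 (SE 0.10). Ager, which codes for RAGE, had a difference of 0.03 ± 0.17 at 0.5 µM and 24 h and was called in none of the 4 comparisons. Anxa2, the gene of annexin A2, was called lower in all 4, with -0.69, -0.87, -0.83 and -0.95 (SE 0.23).

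**Figure D5:**
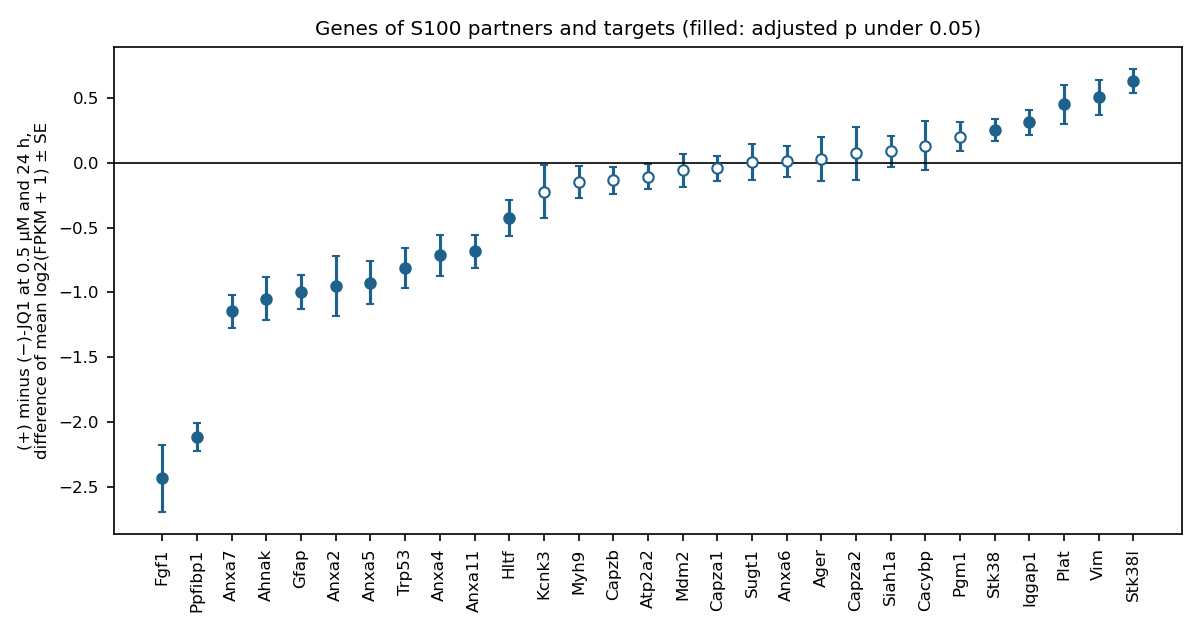
Difference between (+)-JQ1 and (−)-JQ1 at 0.5 µM and 24 h for the 29 tested genes of S100 partners and targets, as the difference of mean log2(FPKM + 1) with SE bars; filled points have an adjusted p under 0.05 in limma. Fgf1 (-2.44) and Ppfibp1 (-2.12) are lowest, and 5 genes, with Vim (0.51) among them, are called higher.

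Depth was similar across libraries, and 2 libraries stood out by their share of Mir5105. Between the enantiomers, median-of-ratios scaling moved the median difference of all genes up by 0.0766 to 0.101 (log2), as given above. Relative depth, inferred from the FPKM worth of 1 read, ran from 0.939 to 1.05, and the total number of reads is unknown. No 2 libraries had identical values, and the correlation of log2(FPKM + 1) between libraries was 0.875 to 0.971. Mir5105 took 42.7% and 46.9% of all FPKM in 2 libraries, the first of (−)-JQ1 and the second of (+)-JQ1 at 0.2 µM and 24 h, and at most 6.69% in the other 22. Without these 2, the call of S100a10 at 0.2 µM and 24 h was lost. From 12 to 24 h in (−)-JQ1, 6 rather than 4 members were then called higher. The share of all genes called without these libraries was not taken, so the count is not read as a result about the members.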

How the data were processed

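Poly(A) RNA was sequenced as single-end reads of 50 bases from 24 libraries. Per the submitters' processing notes, FastQC was used for quality control and TopHat2 for alignment to the mm9 build. Not given in the sources used here are their versions, the program that computed the values, the annotation and the strand setting. Deposited were files that hold FPKM per gene symbol as made by the authors. No read counts were used, so no count test was run. Of 26694 entries per file, 58 with 29 repeated symbols were left out. The 13801 genes that reached 1 FPKM in 3 libraries were analysed as log2(FPKM + 1) in limma 3.58.1 (R 4.3.3), with 1 mean per group, 16 residual degrees of freedom, trend and robust settings, and Benjamini-Hochberg adjustment over all genes tested.

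The 8 genes and all lists were chosen with earlier results of these data known. Named besides them were any other S100 gene tested, neighbouring genes and the 3 genes most alike each (here mostly the first). Of the partner list, the 4 most abundant and the 4 with the largest called difference at 0.5 µM and 24 h were named. Ager, Anxa2 and Mir5105 were named after their values were seen. Snapin, Ilf2, Mcm3ap and Pcnt do not border a member and were picked from further neighbours by no rule set beforehand. Ints3, Zfp280b and Ybey, also tested there, were not described. Alternatives were a pseudocount of 0.1, no filter, a filter at 5 FPKM, median-of-ratios scaling, library weights, the libraries of a comparison alone, a replicate block, without the 2 libraries rich in Mir5105, and without each library in turn. In 1823 of 2306 low genes all values were within 1% of whole multiples of a step, which gave relative depth. Promoters and gene order are from RefSeq tables of GRCm38.p6, not mm9. The scripts were tested on simulated data.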

Additional observations from a re-analysis of the deposited data

How the results depend on the processing

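For single S100 genes there were 46 results, all from values known when the genes were chosen. The difference kept its direction and its side of the threshold in 631 of 692 alternative values. It lost its call in 44, gained one in 13 and turned in 4, all 4 for S100b between doses of (−)-JQ1, where no call was made. There the value at 24 h was -0.03, and 0.028 under median-of-ratios scaling and -0.21 to 0.22 with each library left out. At 12 h it was -0.17, and -0.34 to 0.0052 with each library left out; causes were not tested. The number of members called higher from 12 to 24 h in (−)-JQ1 was 4. It was 1 with a pseudocount of 0.1, 2 with the libraries of the comparison alone, and 1 to 4 with each library left out. The number called for the difference between times at 0.5 µM was 0, and 1 with the libraries of the comparison alone. Between doses of (−)-JQ1 at 24 h it was 0, and 0 to 2 with each library left out, and for the difference between doses at 24 h it was 0, and 0 to 1. Shares of all genes called in these settings were not taken, so the counts are not read as results about the members. A further 74 uncalled results had 1228 alternative values, of which 10 were called and 100 had the other sign.

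The numbers 1 to 3 were not taken to pair libraries, since the labels do not state that a number marks a shared preparation. Same-numbered libraries deviated from their group means with correlations from -0.34 to 0.36, and 5, 10 and 7 of 28 pairs were above 0.1. These pairs were taken over 12 and 24 h together, so they cannot decide whether a preparation was shared within a time. With the number as a replicate block, 5, 7, 7 and 7 members were called between enantiomers, in place of 5, 6, 7 and 7. In (−)-JQ1, 5 were called higher from 12 to 24 h, in place of 4. The other counts stayed as they were. The shares of all genes called with the block were not taken, so these counts are not read as results about the members. This block gave each number 1 effect common to both times, so it cannot take up an effect that differs between 12 and 24 h. Low read numbers limit S100a4, S100a6 and S100a13 in (+)-JQ1, and 3 libraries per group limit all.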

Other observations

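S100a1 at 12 h was highest in the library numbered 1 and lowest in that numbered 3 in all 4 groups, of either enantiomer and dose. S100b at 12 h was highest in number 1 in all 4 groups, and at 24 h it was lowest in number 1 in all 4. S100a11 at 12 h was highest in number 2 in all 4 groups. The values of S100a1 at 12 h were 28.5, 28.2, 14.7 and 14.1 FPKM in the libraries numbered 1, and 12.9, 11.2, 7.12 and 5.20 FPKM in those numbered 3. Within a number at 12 h, (+)-JQ1 minus (−)-JQ1 for S100a1 was -0.91, -0.76 and -0.78 at 0.2 µM and -0.96, -0.90 and -0.98 at 0.5 µM on the log2 scale. These patterns were picked out after the values were seen, and whether a number marks a shared preparation is not stated in the labels.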
